A study of Homo sapiens with 5 samples.

Results

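RNA polymerase II (RNAPII) occupancy was examined at 6 stress-response genes, HSP90AA1, DNAJB1, HSPH1, CHAC1, TRIB3 and PDIA4, chosen by gene name with earlier results of these data known. Each of the 6 had 1 listed transcription start site (TSS), out of 9787 TSSs in 9767 genes with values in all 3 libraries that covered TSSs. That TRIB3 and PDIA4 lie in stretches of chromosome with low surrounding density in both knockouts was known from the measured values when the genes were chosen, so it is given as a description. The assay was ChIP-seq with antibodies to RPB1, the catalytic subunit of RNAPII, in hTERT-RPE1 cells, an immortalised human retinal pigment epithelial line. The tested lines were CFAP20-KO, which lacks the cilia- and flagella-associated protein CFAP20 (1 sample), and CFAP20/CCNC-dKO, which also lacks CCNC, the cyclin C of the Mediator kinase module (1 sample). They were set against WT cells with both genes intact (3 samples, 1 of them with values around TSSs). Cells of all 3 groups were p53 and puromycin resistance double knockouts with an inducible Cas9, and no stress treatment was given in the labels. The labels do not say how many clones stand behind a knockout line.

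Immunoprecipitations held 28 µg of chromatin with 40 ng of Drosophila spike-in chromatin for CFAP20-KO, 22 µg with 32.6 ng for CFAP20/CCNC-dKO, and 28 µg with 40 ng for WT. The labels name another antibody supplier for both knockouts than for WT, and for WT the RPB1 antibody shares its catalogue number with the spike-in antibody. Antibody and genotype therefore cannot be told apart in comparisons with WT. The libraries held 846836 (CFAP20-KO), 1185012 (CFAP20/CCNC-dKO) and 6769496 (WT) equivalent fragments over TSS windows, where an equivalent fragment is the coverage that 1 fragment adds. With 1 such library per genotype, no difference between genotypes could be tested or checked against replicates. Intervals in brackets are 95% Clopper-Pearson intervals from equivalent fragments and cover counting error only. Neither CFAP20 nor CCNC had a listed TSS, so the knockouts were not checked at their targets here. Of 24 marker genes, 10 had values. Promoter density of RPE65, which encodes the retinal pigment epithelium's retinoid isomerase, was 0.305 times the density of its flanks in CFAP20-KO, 1.75 times in CFAP20/CCNC-dKO and 1.16 times in WT. OTX2, a transcription factor of that epithelium, stood at 3.23, 2.26 and 2.68 times its flanks in CFAP20-KO, CFAP20/CCNC-dKO and WT. RLBP1, which encodes a retinoid-binding protein, stood at 0.848, 1.52 and 1.46 times its flanks in the same order, and the keratin gene KRT19 was below its flanks in every library (0.256, 0.524 and 0.832). MITF and TERT were above their flanks in all 3 libraries, at 1.12 to 1.91 and 1.71 to 3.43 times. Markers of other cell types were near or below flank density, except the neuronal gene SNAP25, at 2.25 times its flanks in WT, and the hepatocyte gene ALB, at 1.97 and 1.42 times its flanks in CFAP20-KO and CFAP20/CCNC-dKO.

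The 6 genes belong to overlapping programmes of protein quality control. In the heat shock response, the transcription factor HSF1 binds heat shock elements in promoters of cytosolic chaperone genes, and in Drosophila such genes are known to hold an engaged polymerase just past the start before stress. In the unfolded protein response, sensors in the endoplasmic reticulum (ER) raise ER chaperones through ATF6 and XBP1 and, through PERK, translation of ATF4, the factor shared with the wider integrated stress response. HSP90AA1 encodes the inducible cytosolic HSP90, DNAJB1 an HSP40 co-chaperone that delivers substrates to HSP70, and HSPH1 the HSP110 nucleotide exchange factor of HSP70. CHAC1, a glutathione-degrading enzyme, and TRIB3, a pseudokinase, are targets of ATF4 and CHOP. PDIA4 is a disulfide isomerase of the ER lumen.

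Promoter windows (250 bases before to 50 after an annotated start) were searched on both strands for the elements these factors recognise. Heat shock element cores were searched as GAANNTTC or TTCNNGAA and the longer form as 3 alternating GAA and TTC units with 2 bases between neighbours, which contains overlapping cores. The C/EBP-ATF response element was searched as TGATGNAA, the ER stress element by its consensus, the unfolded protein response element as TGACGTG, and the CCAAT and TATA boxes as CCAAT and TATAAA. The ER stress element contains a CCAAT box. RefSeq (GRCh38.p14) held promoters for all 6 genes, but for HSPH1 and TRIB3 at other starts than GENCODE 44's canonical one, so for these genes the window at the canonical start was also read from the hg38 genome. Of 5 windows with a match to a stress element, 4 are shown, those with the most matches in each gene, because they carry the letters of an HSF1 or ATF4 site. The other, at a further RefSeq start of DNAJB1 (chr19:14517888-14518187), held 1 heat shock element core, at 1 to 8 from that start. Capitals mark heat shock element cores in the first 3 and the C/EBP-ATF response element in CHAC1, and all run 5′ to 3′ on the strand of the gene. They are, in hg38 coordinates, chr14:102086995-102087294 (minus strand), chr19:14518348-14518647 (minus), chr13:31161855-31162154 (minus) and chr15:40953221-40953520 (plus).
HSP90AA1: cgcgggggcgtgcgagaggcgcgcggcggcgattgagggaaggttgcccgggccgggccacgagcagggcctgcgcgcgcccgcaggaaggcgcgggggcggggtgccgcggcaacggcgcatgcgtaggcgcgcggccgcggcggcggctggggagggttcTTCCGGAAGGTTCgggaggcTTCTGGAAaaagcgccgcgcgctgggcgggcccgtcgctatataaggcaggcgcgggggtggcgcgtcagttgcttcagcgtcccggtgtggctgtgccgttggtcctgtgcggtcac
DNAJB1: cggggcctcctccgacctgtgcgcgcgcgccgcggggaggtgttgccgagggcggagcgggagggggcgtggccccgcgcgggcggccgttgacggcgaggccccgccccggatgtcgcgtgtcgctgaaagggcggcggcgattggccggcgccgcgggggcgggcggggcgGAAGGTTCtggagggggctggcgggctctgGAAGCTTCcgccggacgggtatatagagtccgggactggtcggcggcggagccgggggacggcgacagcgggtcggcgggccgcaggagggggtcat
HSPH1: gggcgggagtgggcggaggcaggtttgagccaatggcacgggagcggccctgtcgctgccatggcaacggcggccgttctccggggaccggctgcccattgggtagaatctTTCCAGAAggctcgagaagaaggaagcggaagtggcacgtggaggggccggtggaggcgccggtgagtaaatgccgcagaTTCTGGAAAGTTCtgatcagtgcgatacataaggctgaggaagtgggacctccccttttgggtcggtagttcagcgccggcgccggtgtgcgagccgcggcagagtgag
CHAC1: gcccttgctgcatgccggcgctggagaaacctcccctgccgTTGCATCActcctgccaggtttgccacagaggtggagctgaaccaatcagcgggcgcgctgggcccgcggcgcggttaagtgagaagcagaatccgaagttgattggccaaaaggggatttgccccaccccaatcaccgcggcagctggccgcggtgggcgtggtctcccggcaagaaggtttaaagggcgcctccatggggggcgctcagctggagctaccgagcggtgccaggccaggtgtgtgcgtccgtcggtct

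In the printed windows HSP90AA1 and HSPH1 each held 3 heat shock element cores, and DNAJB1 held 2. In HSP90AA1 a pair of overlapping cores formed the longer element at -88 to -76 from the start, and the other core lay at -68 to -61. In HSPH1 the longer element lay at -59 to -47, with another core at -139 to -132. In DNAJB1 the cores lay at -77 to -70 and -47 to -40. Over 27305 RefSeq promoters of the same length, 13.7% held at least 1 core, 1.70% at least 2, 0.183% at least 3 and 0.487% the longer element. These shares take 1 window per gene, whereas the printed windows are those with the most matches, and that of HSPH1 is not from RefSeq. The shares are therefore a loose comparison. CHAC1 held the C/EBP-ATF response element at -209 to -202, on the opposite strand, as did 3.67% of promoters, together with 3 CCAAT boxes, which 35.7% of promoters held at least once. TRIB3 had no match to any of these elements in its canonical window (chr20:380510-380809) or its RefSeq window (chr20:381045-381344). PDIA4 (chr7:149028441-149028740) held 3 CCAAT boxes and no match to the ER stress or unfolded protein response element, which 0.0806% and 2% of promoters held. These are letter matches only.

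**Figure D1:**
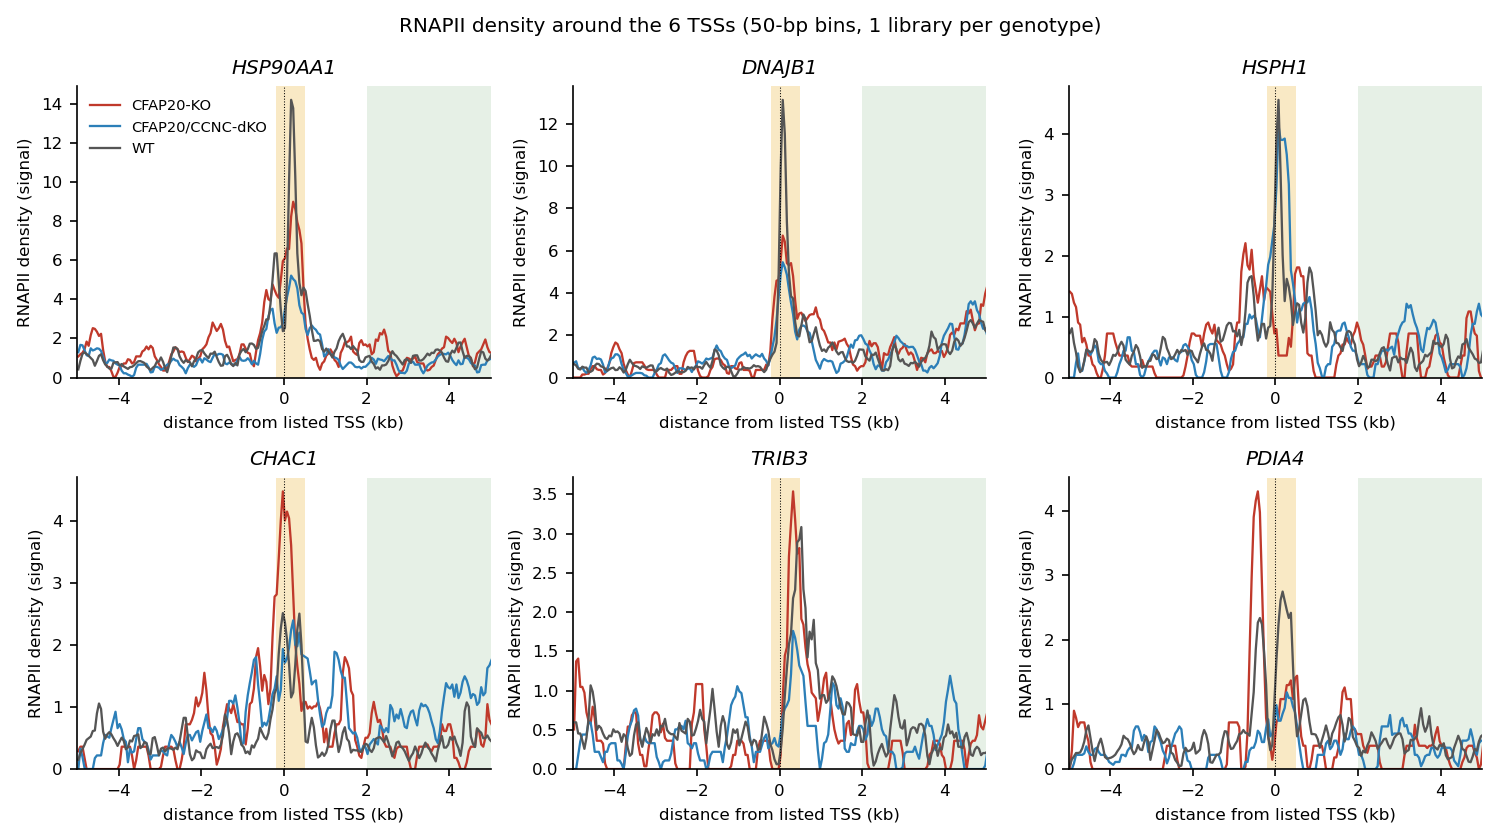
RNAPII density (deposited signal, averaged in 50-bp bins) against distance from the listed TSS in the direction of transcription for the 6 genes, with 1 line per library. Yellow marks the promoter window (-200 to 500 bp) and green the gene body window (2000 to 5000 bp). HSPH1 and PDIA4 in CFAP20-KO have their maxima upstream of the start, at -760 and -450 bp. For CHAC1, CFAP20/CCNC-dKO is the highest library from 2500 to 5000 bp.

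The promoter window ran from -200 to 500 bp of the listed TSS and the gene body window from 2000 to 5000 bp, and density is the mean signal in a window. All 6 genes were among the 4892 genes above the density filter of 0.411. HSP90AA1 and DNAJB1 were the most densely occupied of the 6 at the promoter in each library, and both also had the densest gene bodies in CFAP20-KO and WT. In WT the 95% Poisson counting intervals of HSPH1 (1.92, 1.67 to 2.20), CHAC1 (1.87, 1.62 to 2.14) and PDIA4 (1.70, 1.46 to 1.96) promoters overlapped, while those of HSP90AA1, DNAJB1 and TRIB3 (1.22, 1.02 to 1.44) stood apart. In the authors' deposited table, nascent RNA over the DNAJB1 gene body in WT (by BrU-seq, on a scale not given) stood at 225, above 99.9% of the 6306 TSSs with a value. The same quantity in the authors' deposited table was 41.6 for HSP90AA1, 11.5 for CHAC1, 5.79 for TRIB3, 4.84 for PDIA4 and 1.65 for HSPH1. HSPH1, the lowest of the 6, still stood above 68.9% of those TSSs in the authors' deposited table. A gene was called different between libraries when its ratio (pseudocount 0.0424) was at least 1.5-fold away from the median ratio of the 4892 genes.

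**Figure D2:**
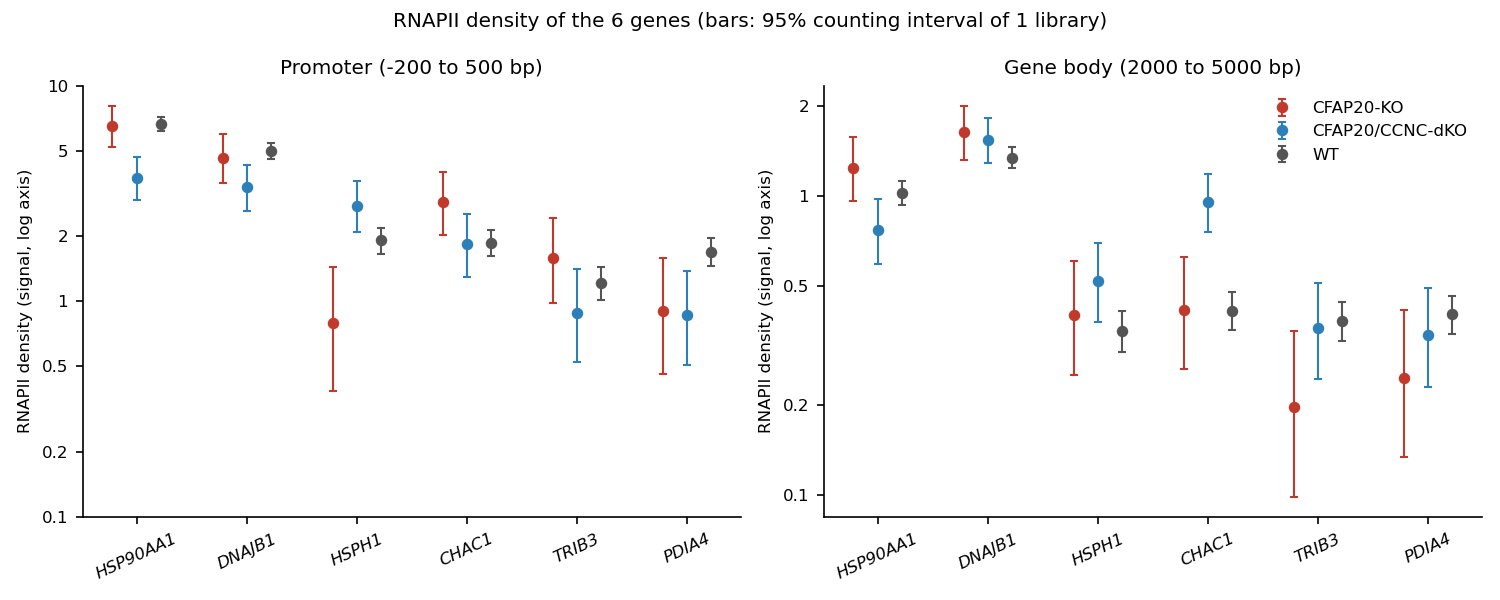
RNAPII density on a log axis in the promoter window (left) and gene body window (right) of each gene, 1 library per genotype. Bars are 95% Poisson counting intervals from equivalent fragments. The HSPH1 promoter in CFAP20-KO (0.789) lies apart from the other libraries of the same gene. So do the HSP90AA1 promoter (3.74) and the CHAC1 gene body (0.951) in CFAP20/CCNC-dKO.

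Across the 6 promoters, CFAP20-KO density lay above WT at some genes and under it at others. HSPH1 and PDIA4, at 0.411 and 0.529 times WT, were called lower and none was called higher, with CHAC1 at 1.55 times WT and the other 3 between 0.930 and 1.30 times. CHAC1 passed 1.5-fold under 5 alternatives, at log2 0.62 to 0.85, and TRIB3 after division by local flank density, at log2 1.25. Among all 4892 genes, 16.6% were called lower and 15.8% higher. The median log2 ratio of the 6 genes was -0.07, beside 0.13 over all genes. In gene bodies, 2 of the 6 were called lower in CFAP20-KO than in WT, TRIB3 and PDIA4, and none higher, where 12.7% of all genes were lower and 7.11% higher. The median log2 ratio of the 6 gene bodies was 0.09, beside 0.08 over all genes.

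CFAP20/CCNC-dKO promoters of the 6 genes had a median log2 ratio to WT of -0.50, beside -0.24 over all genes. HSPH1 was called higher and PDIA4 lower, where 18.8% of all genes were called higher and 16.7% lower. In gene bodies only CHAC1 was called higher and none lower (all genes: 5.17% higher and 9.67% lower), with a median log2 ratio of 0.06 beside 0.03 over all genes.

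Between CFAP20/CCNC-dKO and CFAP20-KO, whose labels name the same antibody supplier, the median promoter log2 ratio of the 6 genes was -0.54, beside -0.40 over all genes. HSPH1 was called higher and none lower (all genes: 20.8% higher and 17.7% lower). In gene bodies CHAC1 and TRIB3 were called higher and HSP90AA1 lower (all genes: 13% higher and 11.8% lower), with a median log2 ratio of 0.38 beside -0.05 over all genes. The 3 comparisons share libraries, so they are not independent of each other.

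**Figure D3:**
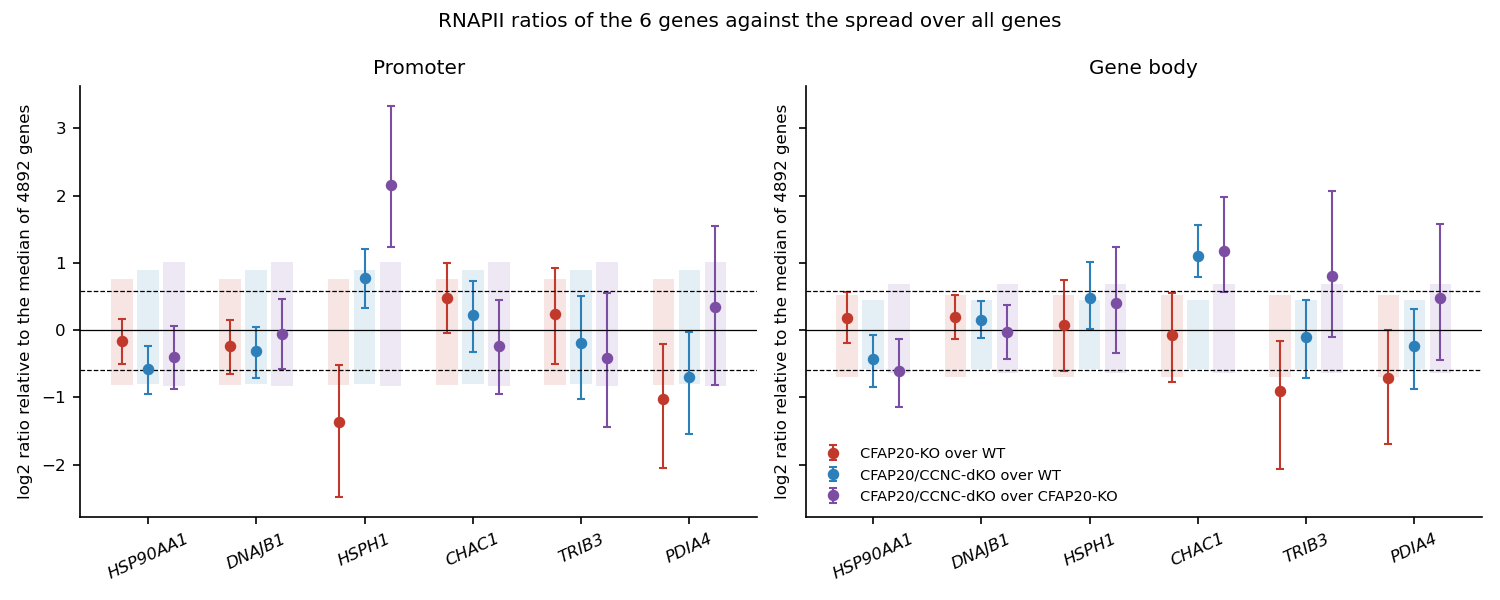
Log2 ratio of RNAPII density at each gene, relative to the median ratio of 4892 genes, for promoters (left) and gene bodies (right). Points have 95% counting intervals, shaded boxes span the 10th to 90th percentile of all genes, and dashed lines mark 1.5-fold. Outside the boxes lie the HSPH1 promoter (CFAP20-KO over WT, and CFAP20/CCNC-dKO over CFAP20-KO), and the CHAC1 gene body in both comparisons of CFAP20/CCNC-dKO, among others.

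HSP90AA1 (chr14:102087192, minus strand, 6454 bp) had a promoter density of 6.52 in CFAP20-KO, 3.74 in CFAP20/CCNC-dKO and 6.65 in WT, from 84.9, 74.7 and 722 equivalent fragments. CFAP20-KO and WT were close, and CFAP20/CCNC-dKO was the low library. The ratio of CFAP20-KO to WT was 0.981 [0.774 to 1.23], that of CFAP20/CCNC-dKO to WT 0.563 [0.437 to 0.715] and that of CFAP20/CCNC-dKO to CFAP20-KO 0.574 [0.415 to 0.792]. The intervals of both CFAP20/CCNC-dKO ratios excluded 1. Relative to all genes, though, promoters were lower in CFAP20/CCNC-dKO generally, and neither ratio was past 1.5-fold once the median ratio was taken out (log2 -0.58 and -0.39). The ratio to WT lay just short of the threshold and passed it as lower under 6 alternatives, among them a narrower window (log2 -0.60) and no centring (-0.82). The ratio to CFAP20-KO passed it with no density filter (-0.60), no centring (-0.79), scaling to upstream density (-0.82) or local flank density (-0.67). Gene body density was 1.24 in CFAP20-KO, 0.766 in CFAP20/CCNC-dKO and 1.02 in WT. Here the call of a lower value in CFAP20/CCNC-dKO than in CFAP20-KO rested on a ratio of 0.619 [0.435 to 0.881], and it was lost with a gene body window of 1000 to 4000 bp, a 5 times larger pseudocount or local flank density (log2 -0.54). The smoothed maximum lay at 230 bp in CFAP20-KO, 210 bp in CFAP20/CCNC-dKO and 190 bp in WT, close to the canonical GENCODE start at 148 bp past the listed one.

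DNAJB1 (chr19:14518421, minus strand, 3651 bp) had the same order, with a promoter density of 4.64 in CFAP20-KO, 3.38 in CFAP20/CCNC-dKO and 4.99 in WT. The ratio was 0.930 [0.700 to 1.21] for CFAP20-KO to WT, 0.677 [0.518 to 0.873] for CFAP20/CCNC-dKO to WT and 0.728 [0.507 to 1.05] for CFAP20/CCNC-dKO to CFAP20-KO. No promoter comparison of DNAJB1 was called, but CFAP20/CCNC-dKO was past 1.5-fold under WT after division by local flank density (log2 -0.67). Its gene body held 1.63 in CFAP20-KO, 1.53 in CFAP20/CCNC-dKO and 1.34 in WT, values that placed it above 98.8%, 99.2% and 98.6% of all genes in the same library. The window runs past the gene's end, and density there did not drop. It averaged 2.21 in CFAP20-KO, 2.11 in CFAP20/CCNC-dKO and 1.95 in WT from the gene end to 5000 bp, against 1.16, 1.07 and 0.851 from 2000 bp to the gene end. TECR, an enzyme gene of fatty acid elongation on the opposite strand, starts 1336 bp past the DNAJB1 start and runs back across it, and ChIP-seq signal has no strand.

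**Figure D4:**
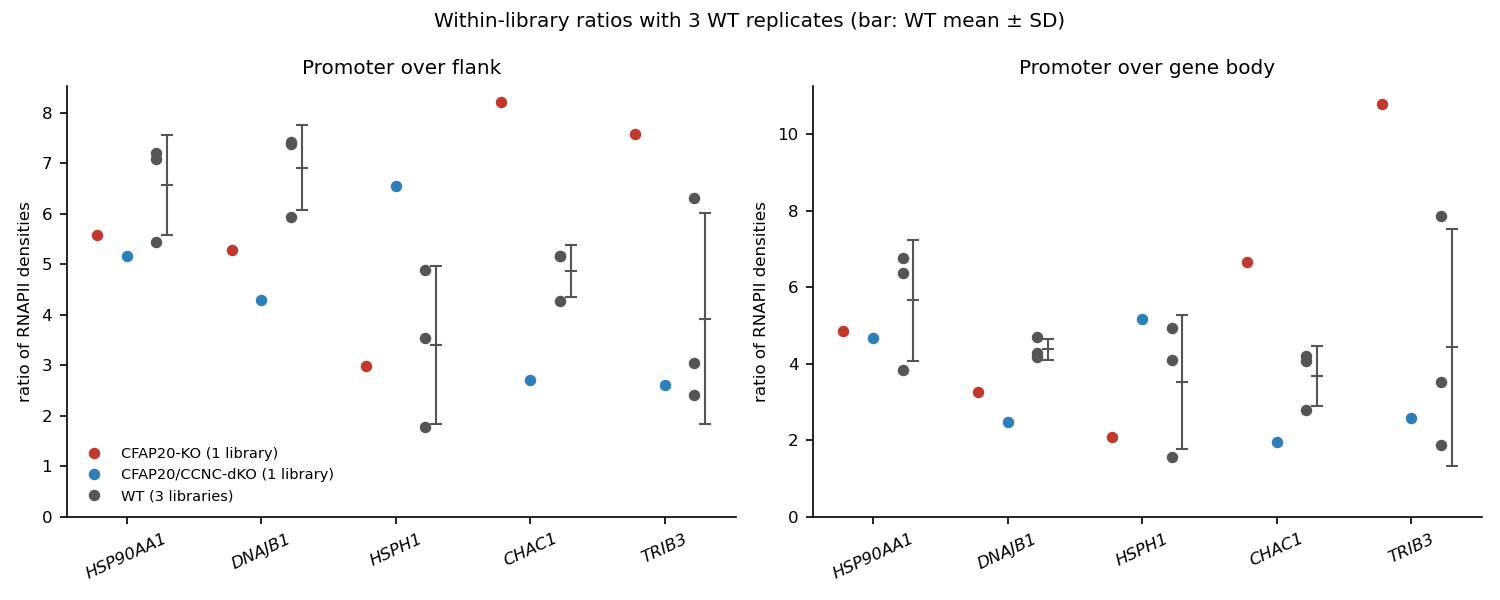
Ratio of promoter to flank density (left) and promoter to gene body density (right) within each library, from 200-bp bins shared by the TSS and origin data, for the 5 genes that lie in replication origin windows. Points are libraries and the bar is the WT mean ± SD (n = 3). For DNAJB1 both knockouts lie under the WT range in both panels, and for CHAC1 CFAP20-KO lies above it and CFAP20/CCNC-dKO under it.

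WT replicates 2 and 3 had values only around replication origins, and 5 of the 6 genes, all but PDIA4, lay inside such a window. Ratios of promoter to flank density (2000 to 4500 bp on both sides) within a library could be compared there, in 200-bp bins. For HSP90AA1 this ratio was 5.58 in CFAP20-KO, 5.17 in CFAP20/CCNC-dKO and 6.57 ± 0.987 in WT (SD, n = 3), with WT values of 7.20, 7.07 and 5.43. CFAP20-KO lay inside the WT range and CFAP20/CCNC-dKO just under it. For DNAJB1 it was 5.28 in CFAP20-KO, 4.28 in CFAP20/CCNC-dKO and 6.91 ± 0.839 in WT, with WT values of 7.41, 5.94 and 7.38, so both knockouts lay under the WT range. Its ratio of promoter to gene body density was likewise 3.25 in CFAP20-KO, 2.46 in CFAP20/CCNC-dKO and 4.38 ± 0.274 in WT. The median over the 5 genes of the WT mean of promoter to flank density was 4.86. With 1 library per knockout these positions are descriptions, and the WT libraries may differ in depth.

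HSPH1 (chr13:31161928, minus strand, 26879 bp) had the widest promoter differences of the 6 genes. Promoter density was 0.789 in CFAP20-KO, 2.78 in CFAP20/CCNC-dKO and 1.92 in WT, from 10.3, 55.5 and 209 equivalent fragments. These values ranked at the 36.2nd percentile of all genes in CFAP20-KO, the 97.2nd in CFAP20/CCNC-dKO and the 78.3rd in WT. CFAP20-KO stood at 0.411 times WT [0.197 to 0.766], CFAP20/CCNC-dKO at 1.45 times WT [1.06 to 1.96] and CFAP20/CCNC-dKO at 3.53 times CFAP20-KO [1.79 to 7.67]. Relative to the median ratio these are log2 values of -1.37, 0.77 and 2.17, the last above 98.7% of all genes. The higher call against WT was lost with a window of -500 to 1000 bp, where density was 0.963 in CFAP20-KO, 1.86 in CFAP20/CCNC-dKO and 1.47 in WT, and without centring, since the plain ratio is under 1.5. It was also lost with local flank density (log2 0.58) and with scaling to upstream density (log2 0.55).

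The low HSPH1 value in CFAP20-KO continued just past the promoter window and did not extend upstream. The windows of -1000 to -200 bp and 500 to 1500 bp, used here and for CHAC1 and PDIA4 below, were chosen after the values were seen. From 500 to 1500 bp density was 0.477 in CFAP20-KO, 0.670 in CFAP20/CCNC-dKO and 0.972 in WT, from 8.86, 19.1 and 151 equivalent fragments. From -1000 to -200 bp density was 1.52 in CFAP20-KO, 0.865 in CFAP20/CCNC-dKO and 0.959 in WT, with CFAP20-KO the highest. From 2000 to 5000 bp it was 0.400, 0.520 and 0.353 in CFAP20-KO, CFAP20/CCNC-dKO and WT, and no gene body comparison was called. The smoothed maximum lay at -760 bp in CFAP20-KO, 90 bp in CFAP20/CCNC-dKO and 60 bp in WT. The heat shock element cores printed above lie upstream of the canonical start, 24 bp past the listed TSS, while a RefSeq start lies at -460 bp of the listed TSS, with no core in its window. Which start the cells used was not measured. WT replicates themselves differed widely at this gene. Promoter to flank density was 2.99 (CFAP20-KO) and 6.54 (CFAP20/CCNC-dKO), against 4.89, 1.78 and 3.55 in WT replicates 1 to 3 (3.40 ± 1.56). The CFAP20-KO value thus lay inside the WT range and the CFAP20/CCNC-dKO value above it.

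CHAC1 (chr15:40953149, plus strand, 3371 bp) differed mainly beyond its promoter. Promoter density was 2.89 in CFAP20-KO, 1.84 in CFAP20/CCNC-dKO and 1.87 in WT, from 37.6, 36.7 and 203 equivalent fragments. The ratio of CFAP20-KO to WT was 1.55 [1.06 to 2.20], which at log2 0.48 above the median ratio was not called, although a wider or narrower window took it past the threshold. CFAP20/CCNC-dKO stood at 0.987 times WT [0.675 to 1.41] and 0.638 times CFAP20-KO [0.393 to 1.03]. The ratio to CFAP20-KO was not called, but was past 1.5-fold lower without centring (log2 -0.64) or with scaling to upstream density (-0.67). In the gene body window the density was 0.415 in CFAP20-KO, 0.951 in CFAP20/CCNC-dKO and 0.412 in WT. CFAP20/CCNC-dKO was therefore 2.31 times WT [1.76 to 3.01], a ratio above 99.7% of all genes, and 2.29 times CFAP20-KO [1.43 to 3.81].

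The excess of CHAC1 density in CFAP20/CCNC-dKO held on both sides of the gene's end. From 2000 bp to the gene end density was 0.419 in CFAP20-KO, 0.727 in CFAP20/CCNC-dKO and 0.344 in WT, and from there to 5000 bp 0.411, 1.14 and 0.471. From 500 to 1500 bp it was 0.863 in CFAP20-KO, 1.35 in CFAP20/CCNC-dKO and 0.479 in WT. The excess over CFAP20-KO was not continuous. From 1500 to 2000 bp density was 0.791 in CFAP20-KO, 0.537 in CFAP20/CCNC-dKO and 0.342 in WT. From 2000 to 2500 bp it was 0.697, 0.502 and 0.428 in the same order. The smoothed maximum lay at -40 bp in CFAP20-KO, 210 bp in CFAP20/CCNC-dKO and -20 bp in WT, and GENCODE's canonical start lies 322 bp past the listed one. Around that start (chosen as a window after the data were seen) promoter density was 1.55 in CFAP20-KO, 1.81 in CFAP20/CCNC-dKO and 1.16 in WT. Relative to the median ratio, CFAP20/CCNC-dKO then stood at log2 0.89 over WT and 0.61 over CFAP20-KO, both past the threshold, while the plain ratio to CFAP20-KO was under 1.5-fold. Around the listed TSS the value over CFAP20-KO had the other sign, at log2 -0.24. Promoter to gene body density in shared bins was 6.66 in CFAP20-KO, 1.94 in CFAP20/CCNC-dKO and 3.68 ± 0.780 in WT (SD, n = 3; 4.19, 4.07 and 2.78), so the knockouts lay on opposite sides of the WT range. Promoter to flank density showed the same order, at 8.21, 2.70 and 4.86 ± 0.515. Gene body density over the density from -5000 to -2000 bp was less stable. It was 1.73 (CFAP20-KO) and 2.40 (CFAP20/CCNC-dKO), and in WT replicates 1 to 3 it was 0.919, 1.83 and 4.71, a range that held both knockouts.

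TRIB3 (chr20:380617, plus strand, 16943 bp) had a promoter density of 1.59 in CFAP20-KO, 0.887 in CFAP20/CCNC-dKO and 1.22 in WT, from 20.6, 17.7 and 132 equivalent fragments. CFAP20-KO was the highest library, and no promoter ratio was called. With a window of -500 to 1000 bp CFAP20/CCNC-dKO was past 1.5-fold under WT (log2 -0.62), and it was past 1.5-fold under CFAP20-KO without centring (-0.81), with no density filter (-0.61) or with scaling to upstream density (-0.84). The ratio was 1.30 [0.777 to 2.08] for CFAP20-KO to WT and 0.728 [0.417 to 1.20] for CFAP20/CCNC-dKO to WT. Gene body density was 0.197 in CFAP20-KO, 0.360 in CFAP20/CCNC-dKO and 0.381 in WT. The low value in CFAP20-KO was 0.516 times WT [0.253 to 0.946], and CFAP20/CCNC-dKO was 1.83 times CFAP20-KO, with an interval [0.894 to 4.04] that included 1. That second call was lost with a gene body window of 1000 to 4000 bp or a 5 times larger pseudocount. The smoothed maximum lay at 320 bp in CFAP20-KO, 340 bp in CFAP20/CCNC-dKO and 470 bp in WT, between the canonical start at 143 bp and the RefSeq start at 678 bp past the listed TSS. Promoter to flank density was 7.58 in CFAP20-KO, 2.60 in CFAP20/CCNC-dKO and 3.92 ± 2.09 in WT (SD, n = 3), where replicates 1 to 3 gave 3.04, 2.41 and 6.30. CFAP20-KO lay above the WT range and CFAP20/CCNC-dKO inside it.

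PDIA4 (chr7:149028642, minus strand, 25580 bp) was lower at the promoter in both knockouts than in WT. Its promoter density was 0.900 in CFAP20-KO, 0.863 in CFAP20/CCNC-dKO and 1.70 in WT, from 11.7, 17.2 and 185 equivalent fragments. The ratio to WT was 0.529 [0.266 to 0.953] for CFAP20-KO and 0.508 [0.291 to 0.833] for CFAP20/CCNC-dKO, and CFAP20/CCNC-dKO stood at 0.959 times CFAP20-KO [0.431 to 2.21]. Gene body density was 0.246 in CFAP20-KO, 0.342 in CFAP20/CCNC-dKO and 0.401 in WT. The CFAP20-KO gene body was called lower than WT on a ratio of 0.613 whose interval [0.326 to 1.06] included 1, a call lost under the same changes and with scaling to upstream density. From -1000 to -200 bp density was 1.82 in CFAP20-KO, 0.263 in CFAP20/CCNC-dKO and 1.13 in WT, and the smoothed maximum lay at -450 bp in CFAP20-KO, 290 bp in CFAP20/CCNC-dKO and 150 bp in WT. In the CFAP20-KO library density upstream of the start thus exceeded that in the promoter window, and with a window of -500 to 1000 bp (1.16 in CFAP20-KO, 0.545 in CFAP20/CCNC-dKO and 1.44 in WT) its lower call against WT was lost, and CFAP20/CCNC-dKO was past 1.5-fold under CFAP20-KO (log2 -0.68).

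**Figure D5:**
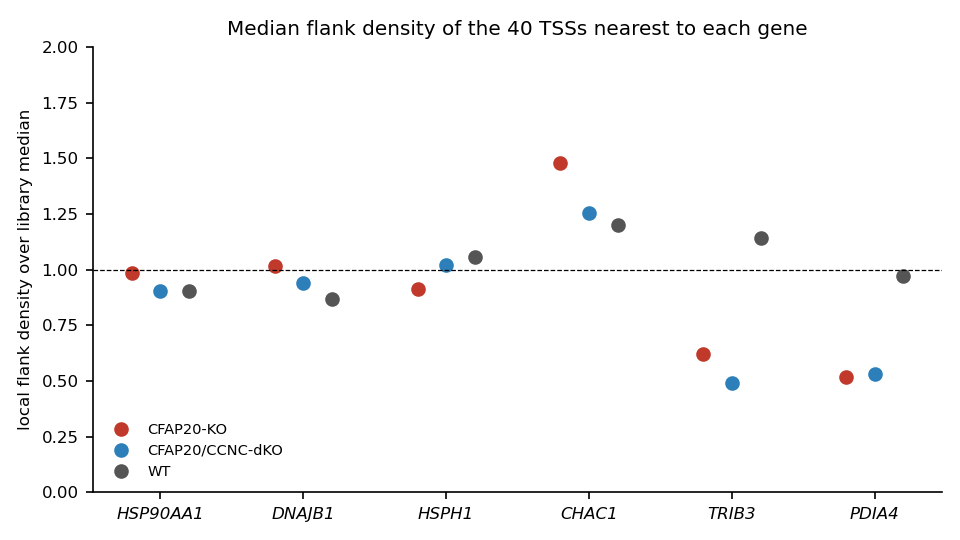
Median flank density of the 40 TSSs nearest to each gene on its chromosome, over the median flank density of the whole library, for each genotype. TRIB3 and PDIA4 lie between 0.490 and 0.621 in the knockouts against 1.14 and 0.970 in WT, and the other 4 genes between 0.870 and 1.48 in all 3 libraries.

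The 40 TSSs nearest to TRIB3 and PDIA4 had lower flank density in both knockouts than in WT, relative to each library's median. The median flank density of the 40 TSSs nearest to TRIB3, over the library's median, was 0.621 in CFAP20-KO, 0.490 in CFAP20/CCNC-dKO and 1.14 in WT. Around PDIA4 it was 0.519 in CFAP20-KO, 0.530 in CFAP20/CCNC-dKO and 0.970 in WT. Around the other 4 genes it lay between 0.870 and 1.48 in all 3 libraries. The own flanks of TRIB3 and PDIA4 were much closer to WT in CFAP20/CCNC-dKO. Over the library's median, those of TRIB3 stood at 0.630 in CFAP20-KO, 1.02 in CFAP20/CCNC-dKO and 1.20 in WT. Those of PDIA4 stood at 0.401, 0.891 and 1.04 in the same order. Local flank density below is the value from the 40 nearest TSSs, so in CFAP20/CCNC-dKO it does not describe the genes' own flanks. Divided by local flank density, the PDIA4 promoter stood at 0.990 (CFAP20-KO) and 0.928 (CFAP20/CCNC-dKO) times WT. The PDIA4 gene body then stood at 1.15 (CFAP20-KO) and 1.56 (CFAP20/CCNC-dKO) times WT. For TRIB3, the promoter came to 2.40 (CFAP20-KO) and 1.70 (CFAP20/CCNC-dKO) times WT, and the gene body to 0.949 (CFAP20-KO) and 2.20 (CFAP20/CCNC-dKO) times WT. No lower call of TRIB3 or PDIA4 relative to WT remained on this scale.

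The ratio of promoter to gene body density, which does not depend on the scaling of a library, was lower in CFAP20/CCNC-dKO than in the WT library with TSS values for all 6 genes. It was 4.89 for HSP90AA1, 2.20 for DNAJB1, 5.35 for HSPH1, 1.94 for CHAC1, 2.46 for TRIB3 and 2.52 for PDIA4 in CFAP20/CCNC-dKO, against 6.52, 3.72, 5.44, 4.53, 3.19 and 4.24 in WT. The difference was small for HSPH1, and with the pseudocount, as in the log2 values below, it went the other way (log2 0.02). Against the WT replicates in shared bins, HSPH1 in CFAP20/CCNC-dKO lay above their range, DNAJB1 and CHAC1 under it, and HSP90AA1 and TRIB3 inside it. The median log2 difference from WT was -0.58 over the 6 genes and -0.26 over all genes, so most genes went the same way. Among all genes, the differences of the 6 ranked from the 8.67th percentile (CHAC1) to the 66.3rd (HSPH1). Fragments covered 319 bp in CFAP20/CCNC-dKO and 145 bp in WT, and the effect of that on this ratio was not tested. In CFAP20-KO the ratio was 5.27 for HSP90AA1, 2.85 for DNAJB1, 1.97 for HSPH1, 6.96 for CHAC1, 8.06 for TRIB3 and 3.67 for PDIA4. It was above that WT library for CHAC1 and TRIB3 and below it for the others, with a median log2 difference of -0.28 beside 0.06 over all genes. Against the WT replicates in shared bins, CFAP20-KO lay above their range for CHAC1 and TRIB3, under it for DNAJB1, and inside it for HSP90AA1 and HSPH1.

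By Euclidean distance over the 6 log2 densities (promoter and gene body in 3 libraries), the genes with the most similar pattern were TOB2 and MARVELD1 for HSP90AA1, MCL1 and TUBA1A for DNAJB1, and TCEB1 and USP36 for HSPH1. For CHAC1 they were TPD52L2 and C11orf24, for TRIB3 P2RY1 and FAM104B, and for PDIA4 TPP2 and ACP6. The nearest was MCL1 to DNAJB1, at a distance of 0.269. HSPH1 had the most distant nearest gene, at 0.762.

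Other genes of the same programmes were taken from 3 lists, chosen like the 6 genes with earlier results known. Of 60 cytosolic heat shock genes, 8 had values and all 8 were above the filter. At promoters 3 of the 8 were called lower in CFAP20-KO than in WT (HSF2, DNAJB6 and HSPBP1) and 0 called higher, where 16.6% of all genes were called lower and 15.8% higher, with a median log2 ratio of -0.25 beside 0.13 over all genes. In CFAP20/CCNC-dKO 3 were called lower than in WT (DNAJB6, HSPA13 and BAG3) and 0 higher (all genes: 16.7% and 18.8%), with a median of -0.46 beside -0.24. Between CFAP20/CCNC-dKO and CFAP20-KO, 3 promoters were called higher and 1 lower (all genes: 20.8% and 17.7%). For the gene bodies of that comparison the counts were 0 higher and 3 lower (all genes: 13% and 11.8%). In gene bodies 1 was called higher (HSF2) and 1 lower (HSPBP1) in CFAP20-KO than in WT, and 0 higher and 2 lower (DNAJB6 and HSPBP1) in CFAP20/CCNC-dKO than in WT, where 7.11% and 5.17% of all genes were higher and 12.7% and 9.67% lower. DNAJB6, a co-chaperone gene on the same chromosome as PDIA4, had promoter densities of 0.849 in CFAP20-KO, 0.481 in CFAP20/CCNC-dKO and 1.54 in WT. Its CFAP20-KO ratio to WT, 0.550 [0.270 to 1.01], had an interval that included 1. That of CFAP20/CCNC-dKO to WT was 0.312 [0.144 to 0.594]. Local flank density of DNAJB6 was low in the knockouts as well, at 0.437 and 0.449 against 0.813 in WT. HSPA13, encoding an HSP70-like protein of microsomes, had 1.03 in CFAP20-KO, 0.398 in CFAP20/CCNC-dKO and 1.07 in WT. HSF2, a heat shock transcription factor, had 0.539, 0.670 and 1.11, with CFAP20-KO at 0.487 times WT and an interval [0.192 to 1.03] that included 1.

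Of 67 ER chaperone and unfolded protein response genes, 13 had values, all above the filter. In CFAP20-KO 4 of the 13 promoters were called lower than in WT (SEC61A1, SELK, UFM1 and VIMP) and 0 called higher, where 16.6% of all genes were called lower and 15.8% higher. In CFAP20/CCNC-dKO 2 were called lower than in WT (CRELD2 and ERN1) and 1 higher (SEL1L), where 16.7% of all genes were called lower and 18.8% higher. In gene bodies ERN1 alone was called, lower in CFAP20-KO than in WT, and none was called between CFAP20/CCNC-dKO and WT. Of all gene bodies, 7.11% were called higher and 12.7% lower in CFAP20-KO, and 5.17% higher and 9.67% lower in CFAP20/CCNC-dKO. Between CFAP20/CCNC-dKO and CFAP20-KO the gene body of ERN1 was again the only one called, as higher (all genes: 13% higher and 11.8% lower). ERN1, which encodes the ER stress sensor IRE1, had promoter densities of 2.53 in CFAP20-KO, 0.737 in CFAP20/CCNC-dKO and 2.17 in WT, and CFAP20/CCNC-dKO stood at 0.340 times WT [0.186 to 0.575] and 0.291 times CFAP20-KO [0.146 to 0.553]. CRELD2, an ER stress-inducible gene, had 2.45, 0.893 and 2.03, with CFAP20/CCNC-dKO at 0.439 times WT [0.255 to 0.712]. SEC61A1, the channel of the translocon, had 1.40 in CFAP20-KO, 1.76 in CFAP20/CCNC-dKO and 2.27 in WT. SEL1L, an adaptor in degradation of ER proteins, had 1.21, 1.35 and 0.947, with an interval of CFAP20/CCNC-dKO over WT [0.898 to 2.20] that included 1. Between CFAP20/CCNC-dKO and CFAP20-KO, 4 of the 13 promoters were called higher and 3 lower, where 20.8% of all genes were called higher and 17.7% lower. Among the higher were SELK and VIMP, both encoding ER selenoproteins, at 1.29 in CFAP20/CCNC-dKO against 0.686 and 1.90 against 1.13. The intervals of both ratios, 1.88 [0.849 to 4.57] for SELK and 1.68 [0.900 to 3.31] for VIMP, included 1. The median promoter log2 ratio of the list was -0.10 in CFAP20-KO over WT, beside 0.13 over all genes, and -0.40 in CFAP20/CCNC-dKO over WT, beside -0.24.

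Of 58 integrated stress response genes, 18 had values and 17 were above the filter. In CFAP20-KO 2 of the 17 promoters were called higher than in WT (NUPR1 and STC2) and 1 lower (NARS), beside 15.8% and 16.6% of all genes. In CFAP20/CCNC-dKO 4 were called higher than in WT (ATF3, NUPR1, PHGDH and PSAT1) and 2 lower (EPRS and TRIB1), beside 18.8% and 16.7% of all genes. Between CFAP20/CCNC-dKO and CFAP20-KO, 4 promoters were called higher and 4 lower (all genes: 20.8% and 17.7%). For the gene bodies of that comparison the counts were 3 higher and 3 lower (all genes: 13% and 11.8%). In gene bodies 3 were called higher and 2 lower in CFAP20-KO than in WT, and 3 higher and 1 lower in CFAP20/CCNC-dKO than in WT. Of all gene bodies, 7.11% were called higher and 12.7% lower in CFAP20-KO, and 5.17% higher and 9.67% lower in CFAP20/CCNC-dKO. NUPR1, a stress-induced transcriptional regulator, had promoter densities of 3.00 in CFAP20-KO, 1.38 in CFAP20/CCNC-dKO and 0.790 in WT. CFAP20-KO stood at 3.80 times WT [2.53 to 5.61] and CFAP20/CCNC-dKO at 1.75 times WT [1.09 to 2.71]. STC2, a secreted stanniocalcin, had 5.71 in CFAP20-KO, 2.26 in CFAP20/CCNC-dKO and 2.88 in WT. TRIB1, a relative of TRIB3, had 4.30, 1.61 and 3.11, with CFAP20/CCNC-dKO at 0.519 times WT [0.350 to 0.746] and 0.375 times CFAP20-KO [0.235 to 0.589]. PSAT1, of serine synthesis, had 1.33, 1.63 and 0.981. The tRNA synthetase gene EPRS had 1.95 in CFAP20-KO, 0.817 in CFAP20/CCNC-dKO and 1.82 in WT, and NARS, another, had 1.13, 1.69 and 1.71. For NARS the ratio of CFAP20/CCNC-dKO to CFAP20-KO, 1.49 [0.787 to 2.96], had an interval that included 1. The list's median promoter log2 ratio was 0.28 in CFAP20-KO over WT, beside 0.13 over all genes, and -0.02 in CFAP20/CCNC-dKO over WT, beside -0.24. HSPBP1, BAG3, UFM1, ATF3 and PHGDH fell outside the rule for named genes and were added after their values were seen, to complete small counts.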

How the data were processed

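Files deposited by the authors give RNAPII coverage (unit: signal) in 10-bp bins within 5 kb of TSSs (spike-in normalized, per the file names) and in 200-bp bins within 100 kb of OK-seq replication origins in WT. The normalization of the origin bins and the aligner behind each file are not given in the sources used here. BWA 0.7.17 and HOMER 4.8.2 are among the tools, and hg38 is the build, per the submitters' processing notes. A further table deposited by the authors holds a BrU-seq score per gene, on a scale not stated. Another 2 per-sample columns were left out.

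Values were whole multiples of 1 step within 0.02 steps, and isolated fragments covered 298 bp in CFAP20-KO, 319 bp in CFAP20/CCNC-dKO and 145 bp in WT. Coverage divided by step and length gave equivalent fragments, so peaks are drawn sharper in WT. With more than 1 TSS in a gene the one of highest mean promoter density was used. Log2 ratios were taken after adding 0.0424, which is 10% of the pooled promoter median, and the density filter was the median of the mean promoter density. Smoothing used 110 bp. Origin windows were placed by matching WT replicate 1's TSS profile to its origin bins, and promoter, flank and gene body were read from shared bins. All windows, members and lists were chosen with earlier results of these data known. Named besides the 6 genes were, per list and comparison, at most 2 higher and 2 lower called promoters with the largest ratio and an interval excluding the median ratio, and the 2 nearest genes by pattern. Alternatives were other windows, TSSs, filters, pseudocounts, scalings and centrings. Steps were tested on simulated data. Python 3.11.15, NumPy 2.4.6, pandas 2.3.3, SciPy 1.17.1 and matplotlib 3.10.9 were used.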

Additional observations from a re-analysis of the deposited data

How the results depend on the processing

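Of 342 recomputed log2 ratios of single genes, 333 stayed within the counting interval of the reported value, and 9 did not, 7 of them after division by local flank density. That division turned 3 values relative to WT in CFAP20-KO, the PDIA4 promoter to 0.0166, the TRIB3 gene body to 0.0538 and the PDIA4 gene body to 0.28. In CFAP20/CCNC-dKO over WT the division took the TRIB3 promoter from log2 -0.20 to 0.78, past the threshold. It took the TRIB3 gene body from -0.10 to 1.15 and the PDIA4 gene body from -0.23 to 0.67, also past the threshold. Staying within a counting interval does not mean that a value was stable, because the intervals are wide. With a wider window the PDIA4 promoter in CFAP20/CCNC-dKO over CFAP20-KO went from log2 0.34 to -0.68, within its interval but past the threshold. Promoter counts of called genes relative to WT were 2 to 3 under every alternative for CFAP20-KO (2 as reported) and for CFAP20/CCNC-dKO (2 as reported), though not always the genes reported. Those for CFAP20/CCNC-dKO against CFAP20-KO (1 as reported) came to 2 with a wider window, with a window around the GENCODE start or with local flank density, to 3 with no density filter and to 4 with no centring or with scaling to upstream density. Gene body counts for CFAP20-KO against WT (2 as reported) came to 1 with a nearer window, a 5 times larger pseudocount or scaling to upstream density, and to 0 with local flank density. The gene body count for CFAP20/CCNC-dKO against WT (1 as reported) came to 3 with local flank density, and for CFAP20/CCNC-dKO against CFAP20-KO (3 as reported) to 1 with a nearer window or the larger pseudocount. Leaving out each WT replicate gave a median promoter to flank ratio of 4.71 to 5.15 over the 5 genes, against 4.86. The causes were not tested. No paired analysis was possible because the groups share only replicate number 1. CFAP20-KO promoter values rest on 10.3 to 84.9 equivalent fragments a gene, which limits their precision.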
